A study of Homo sapiens with 12 samples.

Results

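The exons described here are cassette exons, exons that a transcript either carries or skips, whose length is from 51 to 250 nt and a multiple of 3, and that have at least 1 flanking intron over 500 nt. Of the 4992 cassette exon events listed in all 12 libraries, 2098 met this definition, which uses length and position alone and no measured value. Reads that can come from only 1 of the forms, with or without the exon, are here called isoform-specific, and the 1146 exons with at least 10 of them in every library were tested. The other 952 had fewer reads in at least 1 library. The 1146 events held 1115 distinct exons in 902 named genes. In 762 genes there was 1 such event and in 140 there were 2 or more, up to 5, so that events of a gene are not independent.

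The RNA came from MCF10A cells, an established human line of mammary epithelium that does not form tumours. Cells with the empty retroviral vector MSCV, with an siRNA-resistant wild-type TIP60 or with an siRNA-resistant, catalytically dead TIP60 were used, the last called the dead TIP60 line below. TIP60, encoded by KAT5, is a lysine acetyltransferase. All 3 lines were treated with a control siRNA or with an siRNA against TIP60 for 72 h, which gives 6 groups of 2 libraries. Whether a line is 1 clone, and whether the 2 libraries of a group came from separate cultures, is not given in the sources used here, so that the p-values measure the spread between these libraries, which may be technical.

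Skipping an exon whose length is a multiple of 3 leaves the reading frame downstream intact, so that the mRNA encodes a protein with an internal stretch missing. Skipping an exon of another length shifts the frame and often brings in a premature stop codon, which can expose the mRNA to nonsense-mediated decay. Frame-preserving cassette exons are therefore a common source of protein isoforms, and in epithelial cells many lie in genes of the cytoskeleton, adhesion and signalling. The inclusion level used below runs from 0, exon always skipped, to 1, exon always kept, and is the estimate given by MISO.

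The coding cassette exons with the smallest p-values in the comparison of the siRNAs are shown because they carry the main result, read from GENCODE release 29 transcripts (hg38), 5' to 3' on the strand of the gene. Capitals mark the bases that complete a codon begun in the preceding exon or open one that ends in the next exon. AKT2 lies at chr19:40236257-40236385 on the minus strand, ADD3 at chr10:110132305-110132400 on the plus strand, ABI1 at chr10:26755655-26755741, CDIPT at chr16:29862586-29862720 and TRERF1 at chr6:42263320-42263568, the last 3 on the minus strand.
AKT2: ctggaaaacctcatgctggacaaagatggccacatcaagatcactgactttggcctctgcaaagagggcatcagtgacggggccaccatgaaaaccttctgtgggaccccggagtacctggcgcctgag
ADD3: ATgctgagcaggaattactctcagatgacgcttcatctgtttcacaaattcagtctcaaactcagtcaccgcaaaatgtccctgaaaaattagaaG
ABI1: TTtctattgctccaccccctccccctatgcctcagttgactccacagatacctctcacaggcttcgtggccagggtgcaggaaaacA
CDIPT: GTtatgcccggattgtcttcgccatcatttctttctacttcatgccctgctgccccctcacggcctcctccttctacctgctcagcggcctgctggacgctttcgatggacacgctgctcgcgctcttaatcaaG
TRERF1: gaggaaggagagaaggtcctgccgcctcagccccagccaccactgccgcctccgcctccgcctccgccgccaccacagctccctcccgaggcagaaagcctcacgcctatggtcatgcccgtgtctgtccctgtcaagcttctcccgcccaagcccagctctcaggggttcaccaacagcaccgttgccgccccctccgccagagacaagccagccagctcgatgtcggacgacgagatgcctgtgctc
The AKT2 and TRERF1 exons begin and end between codons, so that skipping removes 43 and 83 whole codons and changes no other. The ADD3, ABI1 and CDIPT exons split a codon at both ends, with 2 bases at the start and 1 at the end, and add 32, 29 and 45 codons. GC content was 55.8% in AKT2, 40.6% in ADD3, 55.2% in ABI1, 57.0% in CDIPT and 67.1% in TRERF1.

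Depth differed by replicate number, with 1983221 to 2280488 event reads in the libraries numbered 1 and 1277953 to 1566296 in those numbered 2. Isoform-specific reads of the median tested exon ranged over 81.5 to 119 and over 45 to 72 in the same order, and the median width of the deposited interval over 0.11 to 0.15 and over 0.16 to 0.2. The shares of reads fitting neither form also differed between these sets, 50.1% to 53.2% against 64.5% to 65.7%, and each set holds all 6 groups. Reads of the KAT5 form with its cassette exon, a check of the siRNA, were lower with TIP60 siRNA in all 6 pairs of same-numbered libraries, at 5.31 to 17.2 reads per 1000000 event reads with control siRNA and 0 to 3.95 with TIP60 siRNA. This check rests on few reads. In empty-vector, wild-type and dead TIP60 lines there were 37, 23 and 25 against 5, 6 and 9 in replicate 1. In replicate 2 there were 8, 8 and 10 against 2, 2 and 0. Under control siRNA the KAT5 form without its cassette exon stood at 2290.7 and 93.0 in replicates 1 and 2 of the wild-type TIP60 line, at 987.7 and 35.1 in the dead TIP60 line and at 8.38 and 0.731 in empty-vector cells. It was thus far lower in replicate 2 of each line, and the part of this in the comparisons between lines was not tested. Of 34 epithelial marker genes 9 had a listed event, CDH1 and ESRP1 among them, with 1864.4 to 4871.8 reads per 1000000 under control siRNA and 1750.8 to 4246.6 under TIP60 siRNA, higher in 2 of 6 pairs. Of 23 mesenchymal markers 2 had one, FN1 and DCN, with 83.0 to 823.7 under control siRNA and 211.7 to 2410.4 under TIP60 siRNA, higher in 6 of 6 pairs, and of 17 immune markers 0 had one. The part of these mesenchymal marker reads in the differences below was not tested.

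Under control siRNA the 1146 exons had a median level of 0.877, with 479 exons (41.8%) at or above 0.9 and 146 (12.7%) at or below 0.1. The 872 tested frame-shifting exons of the same length range had a median of 0.87, with 43.9% at or above 0.9 and 17.7% at or below 0.1. Intermediate levels were found for 45.5% of frame-preserving and 38.4% of frame-shifting exons. These shares are descriptions of the 2 classes, without a test of their difference. The median length was 120 nt in the first class and 125 nt in the second, the median of the longer flanking intron 3893 and 3849.5 nt, and the median GC content 50% and 49.7%.

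**Figure D1:**
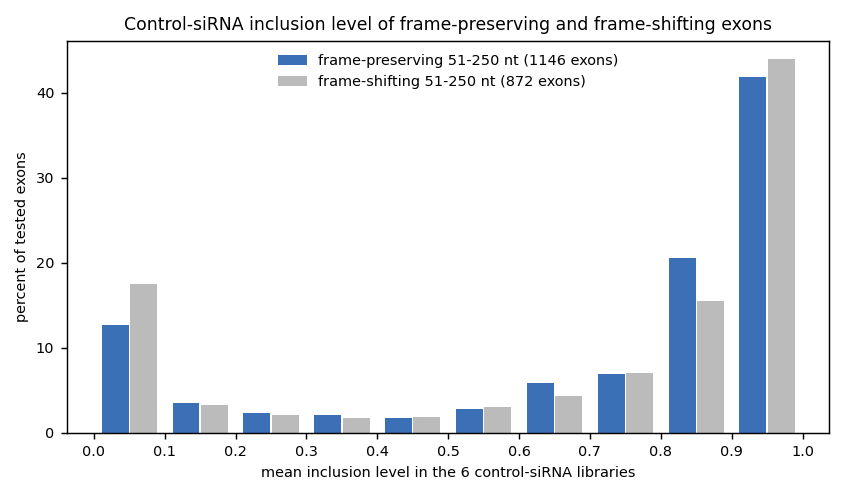
Percent of tested exons (vertical axis) by mean inclusion level in the 6 control-siRNA libraries (horizontal axis, bins of 0.1), for 1146 frame-preserving and 872 frame-shifting exons of 51 to 250 nt. Both classes pile up above 0.9 (41.8% and 43.9%), and the lowest bin holds 12.7% and 17.5%.

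By the annotation, 920 of the 1146 exons (80.3%) are coding throughout, against 542 of 872 frame-shifting exons (62.2%). A further 63 lie in a 5' UTR, the reading frame starts in 56 and ends in 34, 4 belong to non-coding transcripts and 1 to a transcript subject to nonsense-mediated decay, and 68 are on alternate or unplaced contigs and were not annotated. An annotated coding transcript that joins the flanking exons directly exists for 1066. Of the coding exons, 492 begin between codons, 303 begin with the last 2 bases of a split codon and 125 with the last base. Coding exons had a median control level of 0.893, 5' UTR exons 0.203 and exons in which the frame ends 0.257.

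With TIP60 siRNA the exons that changed were almost all skipped more often. Averaged over the 3 lines, 28 exons fell and 1 rose among the 1146 (limma, Benjamini-Hochberg adjusted p under 0.05 over all 2695 tested events). The 28 that fell are 2.44% of the exons, where 1.93% of all tested events fell, and the 1 that rose is 0.0873%, where 0.26% of all events rose. One of the 28 is a copy of the EEF1D exon on an alternate contig with identical levels, so that 27 lower exons differ in their values. Of the frame-shifting exons of the same lengths 1.38% fell and 0.115% rose, and these 2 classes were not tested against each other. The median difference over all 1146 exons was −0.0083, and 63.6% had a lower level, close to −0.0067 and 62.2% over all tested events.

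The 28 lower exons were below their controls in both sets of libraries. The average over these same 12 libraries selected them, so that such agreement is favoured in advance and is given as description alone. The median difference of the 28 was −0.1567 among the libraries numbered 1 and −0.135 among those numbered 2, with 28 of 28 below 0 in each. In 26 of them, all but SLC37A2 and SIRT3, the level was lower in 6 of 6 same-numbered pairs, and in 20 all 6 TIP60-siRNA libraries lay below all 6 control libraries. Over all frame-preserving exons such a complete separation was found downward in 37 (3.23%) and upward in 4 (0.349%), against 2.6% and 0.445% of all tested events. The count of 29 depended on each library: with any 1 of the 12 left out, 3 to 10 exons were called, and 2 of the 29 (AKT2 and ADD3) passed in each of these fits. Same-numbered libraries deviated together, and with replicate number as a block in the fit 52 exons fell and 5 rose, including all 29 above. That is 4.54% and 0.436% of the exons, against 3.75% and 0.519% of all events. With the block and 1 library left out the number was 61 without empty-vector control replicate 1, 47 and 41 without empty-vector TIP60-siRNA replicates 1 and 2, 43 without dead TIP60 line TIP60-siRNA replicate 2, and 21 to 32 without any of the other 8 libraries. Of the 29 exons, 8 passed in each of these fits with the block, namely AKT2, ADD3, ABI1, CDIPT, MPRIP, SBF1, MFGE8 and THSD1.

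**Figure D2:**
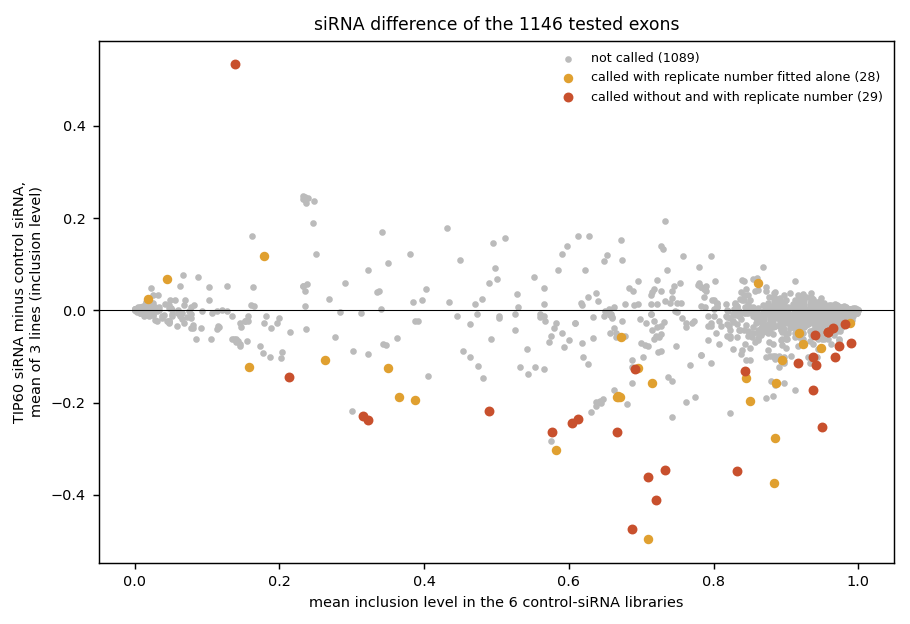
Difference in inclusion level, TIP60 siRNA minus control siRNA averaged over 3 lines (vertical axis), against the mean level in the 6 control-siRNA libraries (horizontal axis), 1 point for each of 1146 exons. Exons called by limma without and with the replicate block (29) and with the block alone (28) lie below 0 except for 5, with ADD3 at the top.

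The smallest p-value was that of AKT2, a kinase of insulin and phosphoinositide signalling, whose 129-nt exon encodes part of the kinase domain. In empty-vector cells its level was 0.94 and 0.97 against 0.83 and 0.87 with the TIP60 siRNA, it was 0.92 and 0.94 against 0.8 and 0.81 in the wild-type TIP60 line, and 0.94 in both control libraries against 0.82 and 0.81 in the dead TIP60 line. All 6 TIP60-siRNA libraries lay below all 6 control libraries. The mean went from 0.942 ± 0.016 to 0.823 ± 0.025 (SD, n = 6 libraries each), a difference of −0.118 (SE 0.00921, limma adjusted p = 0.00394). At least 117 isoform-specific reads stood behind each of these values. AKT2 passed without any 1 library, its limma adjusted p then being 0.00408 to 0.028.

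ADD3 was the only exon of the 1146 that rose in the fit without the block. It encodes gamma-adducin, which caps actin filaments and ties them to the spectrin network. The 96-nt exon had levels of 0.22 and 0.16 with control and 0.72 and 0.58 with TIP60 siRNA in empty-vector cells, 0.1 and 0.26 against 0.64 and 0.79 in the wild-type TIP60 line, and 0.05 and 0.04 against 0.71 and 0.59 in the dead TIP60 line. The lowest TIP60-siRNA library lay 0.32 above the highest control library, and the average rise was 0.53 (SE 0.0462, limma adjusted p = 0.00546). Reads were few, with 12 in the thinnest library, yet in the dead TIP60 line the control libraries had 2 and 0 reads with the exon against 30 and 17 without it, and the TIP60-siRNA libraries 35 and 9 with it against 5 and 3 without it. The call held without any 1 library (limma adjusted p = 0.011 to 0.034).

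Other exons of the actin cytoskeleton fell. ABI1 encodes a subunit of the WAVE complex, which activates branched actin assembly. Its 87-nt exon stood at 0.62 and 0.86 against 0.33 and 0.39 in empty-vector cells, 0.73 and 0.72 against 0.29 and 0.38 in the wild-type TIP60 line, and 0.68 and 0.71 against 0.2 and 0.27 in the dead TIP60 line. No control library overlapped a TIP60-siRNA library, and the level fell by 0.41 (SE 0.043, limma adjusted p = 0.013). Without dead TIP60 control replicate 2 its adjusted p was 0.0587. The other 4 tested events of ABI1 differed by −0.025 to 0.01 and did not pass, so that the 87-nt exon was the only one of the gene that did.

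MPRIP links myosin phosphatase to actin, and in its 63-nt exon (chr17:17180607-17180669) the annotated reading frame can end. It had 0.78 and 0.74 against 0.35 and 0.36 in empty-vector cells, 0.69 and 0.58 against 0.34 and 0.23 in the wild-type TIP60 line, and 0.87 and 0.6 against 0.44 and 0.37 in the dead TIP60 line. The groups did not overlap, and the difference was −0.362 (SE 0.0498, limma adjusted p = 0.0315). SYNE2, a nesprin that couples the nuclear envelope to actin, went from 0.23 to 0.51 across control libraries to 0.05 to 0.11 across TIP60-siRNA libraries (chr14:64215286-64215354, a difference of −0.238, SE 0.0366, limma adjusted p = 0.0361). SEPT9, a septin of the filament-forming cytoskeleton, had a 57-nt exon at 0.87 to 0.96 and 0.78 to 0.88, where the groups overlapped by a single pair of libraries, and fell by 0.113 (SE 0.0174, limma adjusted p = 0.0361).

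Among signalling and membrane-lipid genes was the largest difference of the 29 apart from ADD3. SBF1, a myotubularin-related pseudophosphatase, had its 78-nt exon (chr22:50457034-50457111) at 0.58 and 0.72 with control against 0.14 and 0.22 with TIP60 siRNA in empty-vector cells, 0.61 and 0.78 against 0.12 and 0.34 in the wild-type TIP60 line, and 0.61 and 0.82 against 0.12 and 0.34 in the dead TIP60 line. Libraries numbered 2 were higher than libraries numbered 1 in every group, by 0.08 to 0.22, and the siRNA difference was the same in both sets at −0.473. It fell by 0.473 (SE 0.0687), with a limma adjusted p of 0.0329 without and of 0.000633 with the block. CDIPT, the phosphatidylinositol synthase, had a small change in a nearly constitutive 135-nt exon: 0.96 to 0.98 in the control libraries and 0.91 to 0.94 in the TIP60-siRNA libraries, without overlap (a difference of −0.0383, SE 0.0048, limma adjusted p = 0.0227).

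Among transcription and chromatin genes, TRERF1, a zinc finger regulator of transcription, had a 249-nt exon that fell by 0.348 (SE 0.0488, limma adjusted p = 0.0315). It had 0.59 and 0.89 against 0.4 and 0.35 in empty-vector cells, 0.9 and 0.95 against 0.6 and 0.57 in the wild-type TIP60 line, and 0.83 in both against 0.47 and 0.51 in the dead TIP60 line. One control library, empty-vector replicate 1 at 0.59, overlapped the TIP60-siRNA range. MTA1, a subunit of the NuRD deacetylase complex, had a 51-nt exon at 0.49 to 0.87 and 0.32 to 0.49, meeting at 0.49, and fell by 0.345 (SE 0.0583, limma adjusted p = 0.0366). SIRT3, a mitochondrial deacetylase, fell by 0.252 (SE 0.0454, limma adjusted p = 0.0438), and NAB2, a corepressor of EGR factors, by 0.132 (SE 0.0216, limma adjusted p = 0.0361).

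**Figure D3:**
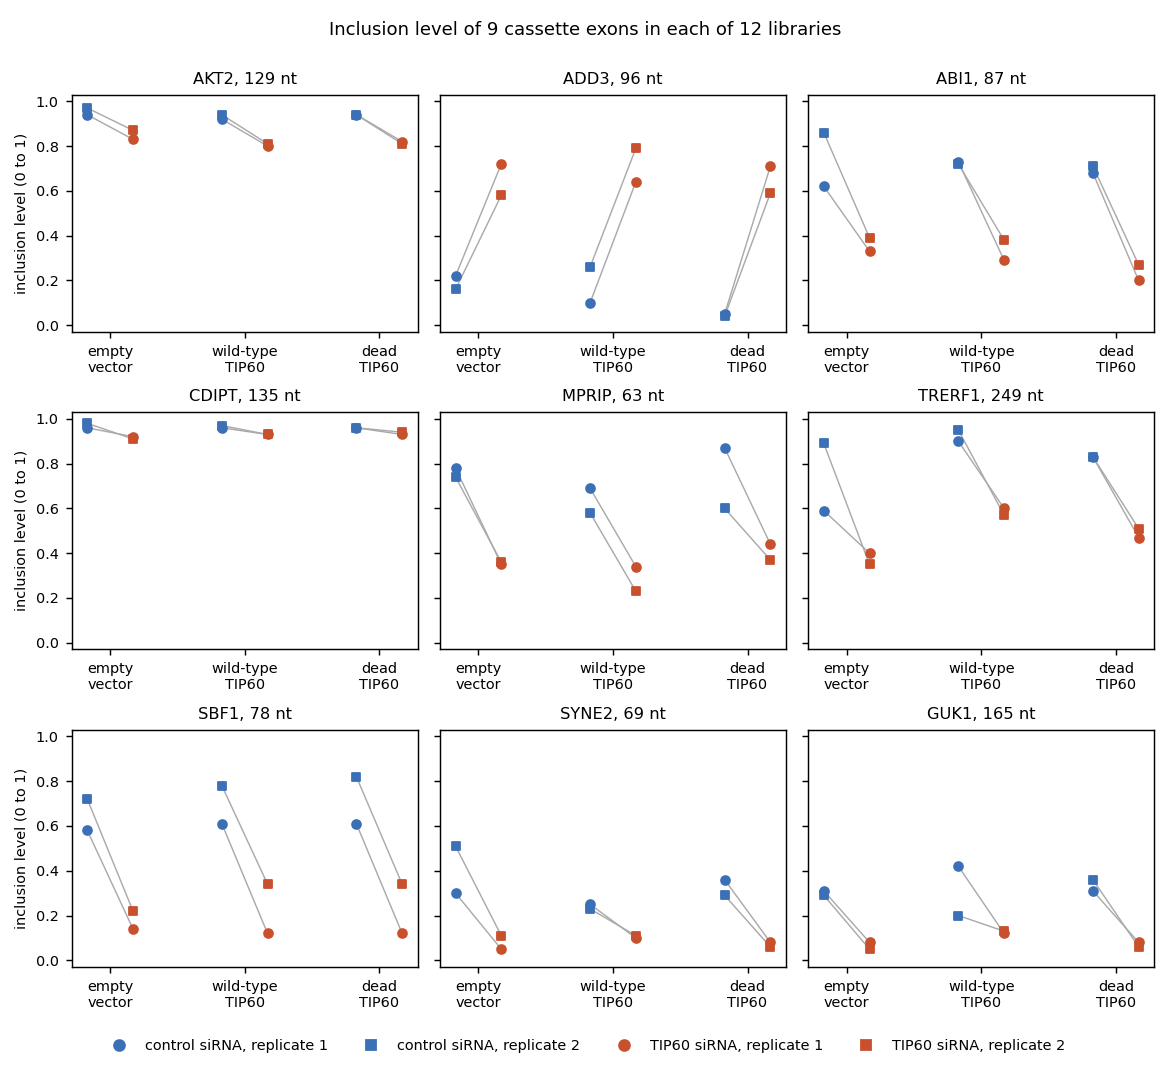
Inclusion level (vertical axis, 0 to 1) of 9 exons in each of the 12 libraries, by line (horizontal axis), with control siRNA in blue and TIP60 siRNA in red and grey lines joining same-numbered libraries. ADD3 is higher and the other 8 are lower with TIP60 siRNA in every pair, by an average of 0.53 in ADD3 and of −0.473 in SBF1.

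Exons of secreted and membrane proteins also fell. LTBP1, which binds latent TGF-beta, had 0.92 to 0.95 with control and 0.71 to 0.9 with TIP60 siRNA and no overlap. MFGE8, a secreted adaptor for phosphatidylserine and integrins, had 0.64 to 0.75 and 0.51 to 0.62 with at least 523 reads per library. THSD1, a thrombospondin-repeat membrane protein, had 0.56 to 0.77 and 0.3 to 0.47. Their differences were −0.172, −0.127 and −0.235 (SE 0.0281, 0.0203 and 0.0394), each with a limma adjusted p of 0.0361.

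GUK1, the guanylate kinase, carries its 165-nt exon (chr1:228141124-228141288) in the 5' UTR, at 0.2 to 0.42 with control and 0.05 to 0.13 with TIP60 siRNA, a difference of −0.228 (SE 0.0355). These low levels are at odds with its isoform-specific reads. Reads with the exon outnumbered those without it in each control library, as in empty-vector replicate 2 with 263 and 25 at a level of 0.29. The cause was not tested, and the size of the level is uncertain. The 165-nt exon of OS9, a lectin of endoplasmic reticulum degradation, had 0.52 to 0.76 and 0.26 to 0.46, a difference of −0.243 (SE 0.0382). HDLBP, an RNA-binding protein also called vigilin, was at 0.99 in all 6 control libraries and at 0.86 to 0.97 with TIP60 siRNA, so that no library overlapped. Limma's adjusted p was 0.0361 for GUK1, OS9 and HDLBP alike.

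In APP, the amyloid precursor protein, the 168-nt exon that encodes the Kunitz protease inhibitor domain fell by 0.0533 (SE 0.00913, limma adjusted p = 0.0377) from 0.93 to 0.95 with control to 0.87 to 0.91 with TIP60 siRNA, with at least 970 reads per library. The neighbouring 57-nt exon of APP went from 0.553 to 0.43 on average and did not pass (limma adjusted p = 0.205). The other exons that fell were in EEF1D, a translation elongation factor, the transferase GSTO1, the ubiquitin-conjugating enzyme UBE2E1, the deubiquitinase JOSD2, the proteasome receptor ADRM1, the palmitoyltransferase ZDHHC16 (5' UTR), SLC37A2, C6orf106 and PQLC1. Their average differences ran from −0.03 in GSTO1 to −0.263 in SLC37A2 and JOSD2, with limma adjusted p-values of 0.0361 to 0.05 (PQLC1, below the threshold before rounding).

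What the 28 lower exons share beyond the definition was described without a test. Their lengths ran from 51 to 249 nt with a median of 126, against 120 over all tested frame-preserving exons. Of the 28, 23 are coding throughout, 2 lie in a 5' UTR (GUK1 and ZDHHC16), in 2 the reading frame can end (MPRIP and SLC37A2), and the contig copy of the EEF1D exon was not annotated. Among coding exons 13 of 303 that begin with 2 bases of a split codon fell, 3 of 125 that begin with 1, and 7 of 492 that begin between codons. The median GC content was 57.1% against 50%, and the median of the shorter flanking intron 719.5 against 1146 nt. Depth moved with these features: the thinnest library of the called exons had a median of 71 isoform-specific reads, against 32 over all 1146, and the part of depth was not tested.

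The lower exons had a median control level of 0.838, against 0.877 over all 1146. Of the 28, 13 had a control level at or above 0.9, 11 from 0.5 to 0.9 and 4 below 0.5, out of 479, 413 and 254 tested exons in those ranges. By length, 12 of 404 exons up to 99 nt fell, 5 of 414 from 102 to 150 nt, 9 of 239 from 153 to 201 nt and 2 of 89 from 204 nt on. At the edges of the definition, 2 of 19 tested exons of 51 nt were called (UBE2E1 and MTA1) and 1 of 13 of 48 nt, just outside. The TRERF1 exon was the only tested one of 249 nt, and no exon of 252 nt was listed in all libraries.

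The largest negative difference of the 1146 exons was that of an exon that passed with the replicate block alone. ARHGAP17, a protein of epithelial junctions, had its 234-nt exon (chr16:24939364-24939597) at 0.59 and 0.77 against 0.11 and 0.37 in empty-vector cells, 0.61 and 0.87 against 0.07 and 0.36 in the wild-type TIP60 line, and 0.6 and 0.82 against 0.05 and 0.33 in the dead TIP60 line. The difference of −0.495 had an SE of 0.0952 without the block and 0.0168 with it (limma adjusted p = 0.0533 and 0.000209). The 207-nt exon of YBX3, a cold shock domain protein, was lower by 0.157 on average in libraries that spread from 0.62 to 0.81 with control and 0.45 to 0.73 with TIP60 siRNA (limma adjusted p = 0.481, and 0.00727 with the block). JADE2, a PHD finger scaffold of histone acetyltransferases, differed by −0.125, DDR1, a collagen receptor kinase, by −0.185 and MAZ, a zinc finger transcription factor, by −0.125, each with a limma adjusted p of 0.00727 with the block. For DDR1, 3 exons of the same length on alternate chromosome 6 contigs also passed with the block (limma adjusted p = 0.0077 to 0.0102) at almost the same levels, and they count among the 52.

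The remaining lower exons of this group lay in PAK4, a kinase of actin and adhesion signalling (a difference of −0.373), CD46, a complement regulator whose 93-nt exon shapes the cytoplasmic tail (−0.195), NTMT1, SLMAP, ACAP3, VKORC1, NONO, AXIN1, ASAP2, ARAP1 and EVA1C, with limma adjusted p-values of 0.0157 to 0.0485 with the block. EVA1C had 0 reads without its exon in each of the 12 libraries, so that no skipping was observed in it. Its highest level, 0.97, came with the most reads, 175 in dead TIP60 line control replicate 1. Its lowest, 0.78, came with the fewest, 15 in dead TIP60 line TIP60-siRNA replicate 2. EVA1C is still counted among the exons lower with the block, and the part of depth in its difference was not tested.

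Exons of RNA-binding proteins were among those that passed with the block alone. The 156-nt exon of HNRNPA1, which yields the longer form of this splicing repressor, stood at 0.09 to 0.24 with control and 0.02 to 0.05 with TIP60 siRNA, without overlap (a difference of −0.122, limma adjusted p = 0.134, and 0.036 with the block). As in GUK1, these low levels are at odds with the reads in the control libraries numbered 2. Reads with the exon outnumbered those without it there, as in empty-vector replicate 2 with 157 and 59 at a level of 0.24. The cause was not tested, and the size of the level is uncertain. PUM2, a translational repressor, differed by −0.197 (limma adjusted p = 0.0551, and 0.0288 with the block), and the poly-U binding splicing factor PUF60 by −0.302 (0.268 and 0.0291). Higher levels came from HNRNPD, an AU-rich element binding protein also called AUF1, whose 57-nt exon differed by 0.06 (limma adjusted p = 0.359, and 0.0185 with the block), and from EIF4H, a cofactor of the eIF4A helicase, whose 60-nt exon differed by 0.117 (0.114 and 0.0212). PDCD10 in its 5' UTR and the remodeller SMARCA4 were the other exons that rose with the block, by 0.0683 and 0.025 (limma adjusted p = 0.0184 and 0.0491 with it).

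**Figure D4:**
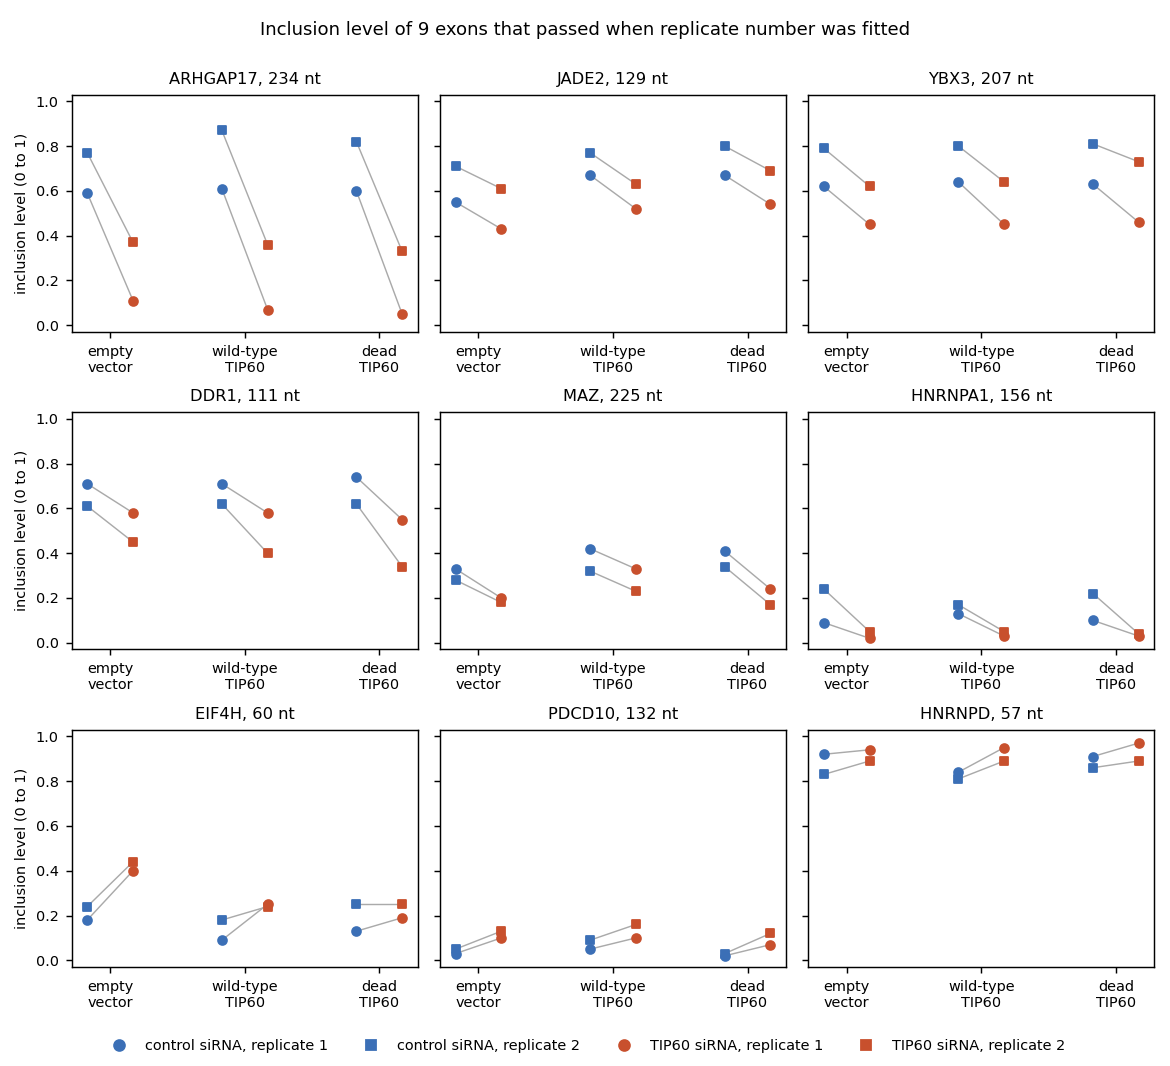
Inclusion level (vertical axis, 0 to 1) by line (horizontal axis) of 9 exons that passed when replicate number was in the limma fit, with control siRNA in blue, TIP60 siRNA in red, circles for replicate 1 and squares for replicate 2. In ARHGAP17, JADE2 and YBX3 the replicate 2 libraries sit above the replicate 1 libraries of their group, and the lines joining same-numbered libraries run nearly parallel.

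The gene lists give the counts by function, beside the 2.44% lower and 0.0873% higher of all 1146 exons. Of 42 exons in actin, cytoskeleton and adhesion genes, 3 fell (ABI1, MPRIP, SYNE2) and 1 rose (ADD3), with a median difference of −0.0092. With the block 6 fell, adding ARHGAP17, the 144-nt exon of the myosin light chain MYL6 and the plakin DST. MYL6 went from 0.988 to 0.962 on average, with 0 to 18 reads without its exon per library against 896 to 5675 with it. DST had 0 to 5 reads without its exon per library. It differed by −0.05 in empty-vector cells, −0.175 in the wild-type and −0.02 in the dead TIP60 line (average, limma adjusted p = 0.171, and 0.0314 with the block). Of 24 exons in genes of the epithelial-mesenchymal splicing programme, 3 fell (ABI1, MPRIP, SLC37A2), and 4 with the block, which adds DST, with a median of −0.0133. The reads of FN1 and DCN given above moved with the same contrast. Of 28 exons in kinase, phosphatase and GTPase genes 2 fell (AKT2 and SBF1), and 4 with the block (ARHGAP17 and DDR1), with a median of −0.0283 and 82.1% below 0.

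Of 31 chromatin and transcription exons 2 fell (MTA1 and SIRT3), and with the block 4 fell (JADE2 and MAZ added) and 1 rose (SMARCA4), with a median of −0.0133. Of 35 exons in metabolic and mitochondrial genes 3 fell (CDIPT, GUK1 and SLC37A2), and of 28 in membrane traffic 1 (APP), where the next exon was that of PLEKHM2 (a difference of −0.198, limma adjusted p = 0.192). Of 25 exons in splicing and RNA-binding genes 0 passed, and with the block 2 fell (HNRNPA1 and PUM2) and 1 rose (HNRNPD). Of 24 cell cycle and centrosome exons 0 passed in either fit, and those of smallest p, in PRC1 and CCND3, differed by −0.0183 and −0.0333 (limma adjusted p = 0.422 and 0.52). Of 14 DNA damage and apoptosis exons 0 passed without the block and PDCD10 alone with it, and PML, the nuclear body protein, differed by −0.102 (limma adjusted p = 0.5). Of 5 exons in epithelial marker genes 0 passed in either fit, where the exons of CDH1, the E-cadherin gene, and of the integrin ITGB4 each differed by −0.01. No mesenchymal or immune marker gene had a tested exon of this kind.

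Within single lines, with 2 libraries against 2, limma called 0 of the 1146 exons in empty-vector cells, where 0.0371% of all events passed, 0 in the wild-type TIP60 line (0.0% of all events) and 0 in the dead TIP60 line (0.0371%). At an unadjusted limma p under 0.05 there were 80, 58 and 85 of the 1146 exons in that order, of which 62, 52 and 75 were lower. Of all 2695 tested events there were 178, 116 and 182, of which 138, 97 and 154 were lower, so that the exons were close to all events. A quasi-binomial model of the reads called 1, 0 and 1 of the exons. With the block 2, 3 and 5 exons fell and 0 rose, against 0.148%, 0.148% and 0.371% of all events. ARHGAP17 and SBF1 passed with the block in each line, AKT2 in the wild-type and dead TIP60 lines, and ABI1 and MAZ in the dead TIP60 line. The PPA2 pyrophosphatase exon was among the 5 of smallest p in the wild-type line alone, with 0.99 and 0.96 against 0.85 and 0.72.

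The lines with a resistant TIP60 also had lower levels of these exons with TIP60 siRNA. Among the 28 exons, which the average over the lines itself selected, the median difference was −0.17 in empty-vector cells, −0.12 in the wild-type TIP60 line and −0.175 in the dead TIP60 line. It was below 0 for 28, 27 and 28 exons. The wild-type line had the smallest difference of the 3 in 15 of them, the empty-vector line in 7 and the dead TIP60 line in 6. A tie was counted for 1 line alone, the empty-vector before the wild-type and the wild-type before the dead TIP60 line. EEF1D, at −0.045 in both empty-vector and wild-type cells, was thus counted for the empty-vector line. Among the 52 exons lower with the block these counts were 24, 18 and 10, with medians of −0.1375 in the wild-type, −0.15 in the empty-vector and −0.1775 in the dead TIP60 line. Over all 1146 exons they were 438, 410 and 298 in the same order, and the counts were not tested. Ties lower the counts of the dead TIP60 line, so that the 3 lines cannot be ranked by them. A difference of exactly 0 was found for 129 exons in the wild-type, 111 in the empty-vector and 110 in the dead TIP60 line. Over all 1146 exons the medians were −0.01 in the empty-vector, −0.005 in the wild-type and −0.01 in the dead TIP60 line.

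The exon of the 28 that was not below 0 in the wild-type TIP60 line was that of SLC37A2, a sugar-phosphate transporter of the endoplasmic reticulum. Its 57-nt exon had 0.58 and 0.68 against 0.12 and 0.2 in empty-vector cells and 0.4 and 0.57 against 0.13 and 0.15 in the dead TIP60 line, but 0.7 and 0.53 against 0.64 and 0.64 in the wild-type TIP60 line. Its thinnest libraries held 12 isoform-specific reads. Control replicate 2 had 9 reads with the exon and 3 without it in the wild-type TIP60 line, and 11 and 1 in the dead TIP60 line. The siRNA difference in the wild-type line exceeded that in empty-vector cells by 0.495 (SE 0.105, unadjusted p = 0.00218 by limma), which did not pass the correction (adjusted p = 1.0, and 0.996 with the block). SIRT3 had −0.37 in empty-vector cells, −0.095 in the wild-type line and −0.29 in the dead TIP60 line, and its difference between the first 2 of these lines did not pass either (limma adjusted p = 1.0).

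**Figure D5:**
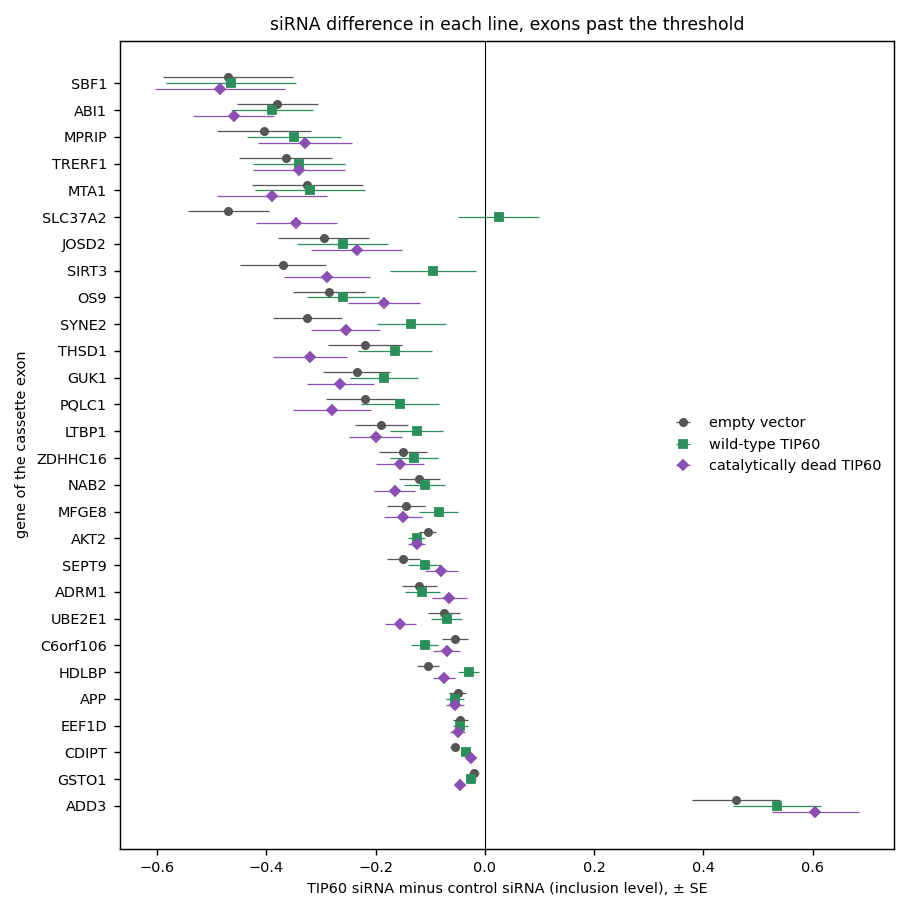
Difference in inclusion level, TIP60 siRNA minus control siRNA (horizontal axis), in each of 3 lines for the 28 exons on primary chromosomes past the threshold (vertical axis, genes), with bars of 1 SE from limma. All points lie left of 0 except the 3 of ADD3 and the wild-type TIP60 point of SLC37A2 at 0.025.

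Differences between lines were few and depended on how the levels were computed. Limma called 0 of 1146 in each of the 3 differences of siRNA effects. At an unadjusted limma p under 0.05 there were 18 exons for wild-type minus empty vector, 13 for dead minus empty vector and 12 for dead minus wild-type. Of all 2695 tested events there were 46, 36 and 32 in the same order. Limma called 0 as well for wild-type and dead TIP60 against empty vector under control siRNA (14 and 9 exons under 0.05, against 43 and 23 of all events). The same held for dead against wild-type TIP60 under TIP60 siRNA (28 exons under 0.05, against 66 of all events, smallest limma adjusted p = 0.566). The unadjusted counts were thus close to the share of all events. With the block alone, and in the quasi-binomial model without it, each of the 6 counts of called exons was also 0. With levels from the read ratio there was 1 exon for each of the differences of siRNA effects against empty vector, 1 for wild-type and 3 for dead TIP60 against empty vector under control siRNA, and 1 for dead against wild-type TIP60 under TIP60 siRNA. The quasi-binomial model with the block called 4 for the last of these. With the block and without empty-vector control replicate 1 there were 8 for wild-type and 6 for dead TIP60 against empty vector under control siRNA, and 5 for the difference of siRNA effects of wild-type and empty vector. Without dead TIP60 line TIP60-siRNA replicate 2 there was 1 for dead against wild-type TIP60.

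The exons of smallest p in those comparisons are given as levels. VRK3, a vaccinia-related kinase, had 0.84 and 0.85 with control against 0.7 and 0.67 with TIP60 siRNA in the wild-type TIP60 line. It had 0.76 and 0.74 against 0.78 and 0.73 in empty-vector cells, and 0.88 and 0.84 against 0.83 and 0.87 in the dead TIP60 line. MGRN1, an E3 ubiquitin ligase, had 0.48 and 0.65 against 0.71 and 0.75 in empty-vector cells, 0.8 and 0.83 against 0.55 and 0.67 in the wild-type line and 0.86 and 0.73 against 0.65 and 0.68 in the dead TIP60 line. Its libraries thus moved up in the first line and down in the other 2, and the test of this difference did not pass (limma adjusted p = 1.0). In TSPAN3, a tetraspanin, 10 libraries were at 0.99 and the 2 TIP60-siRNA libraries of the dead TIP60 line at 0.97. Those 2 libraries had 2 and 1 reads without the exon against 511 and 528 with it, and the other 10 had 0 without it. Dead against wild-type TIP60 under TIP60 siRNA did not pass for this exon (limma adjusted p = 0.97). The exons of PTP4A2, USP48, PIGT and RBM33 completed this group, with differences between siRNAs of −0.07 to 0.085 in single lines.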

How the data were processed

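Cassette exon inclusion was measured by RNA-seq in 12 libraries. TRIzol RNA and a stranded mRNA kit were used, per the labels' protocols. The submitters' processing notes name STAR and hg38 without versions. Per the file headers, each deposited level is a fraction, MISO's posterior mean, with its interval bounds. Deposited read class counts gave the isoform-specific reads.

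Genes and exon classes came from GENCODE release 29. Limma 3.58.1 in R 4.3.3 was fitted to the levels of 2695 events, with 1 factor of 6 groups, a robust empirical Bayes variance trend on mean log2 isoform-specific reads, two-sided p-values and Benjamini-Hochberg adjustment over all events of each of 10 comparisons. Same-numbered libraries deviated together (Pearson r of replicate differences 0.706 to 0.779 over 15 pairs of groups), so that results with replicate number as a block are given beside the main ones. On simulated levels limma recovered 37 of 100 shifts of 0.1 and 78 of 100 shifts of 0.2 in the average siRNA effect, and called 1 of 2495 unshifted events. Those levels were read fractions drawn independently for each library. They lacked the deviation that same-numbered libraries share and were not MISO estimates, so that these rates need not hold for the data.

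The exons and gene lists were chosen with earlier results of these data known. Named are up to 15 exons past the threshold in each direction, 5 per line, 3 per other comparison, 2 per list, the 10 widest gaps, and further exons called with the block, chosen after their values were seen.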

Additional observations from a re-analysis of the deposited data

How the results depend on the processing

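The calls of AKT2 and ADD3 held under all alternatives run. For the average siRNA effect, 29 exons became 57 with the replicate block, 12 with no read minimum, 18 on log2 odds, 14 with the level from the read ratio, 18 without the variance trend, and 154 in the quasi-binomial model with the replicate block. Over all 2695 tested events 59 became 115 with the replicate block. For the other alternatives, here, above and below, the share over all events is not given. Those counts show how far the number of calls moved, and nothing particular to frame-preserving exons. Leaving out any 1 library gave 3 to 10 exons without the block and 21 to 61 with it (61 without empty-vector control replicate 1, 47 without empty-vector TIP60-siRNA replicate 1), where the latter fits were chosen after seeing the data. A group left with 1 library was assumed to vary like the others.

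In empty-vector cells 0 exons became 2 with the block, 2 with the read ratio, 1 in the quasi-binomial model and 26 with both model and block, and 0 to 5 without 1 library (0 to 18 with the block). In the wild-type TIP60 line 0 became 3, 1 with the read ratio and 11 with model and block, and 0 to 1 without 1 library (0 to 4 with the block). In the dead TIP60 line 0 became 5, 5 with the read ratio, 1 in the quasi-binomial model and 36 with model and block, and 0 to 3 without 1 library (0 to 11 with the block).

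For the other comparisons 0 exons became, with the read ratio, 1 for the difference of siRNA effects of wild-type and of dead TIP60 against empty vector, 1 for wild-type against empty vector under control siRNA, 3 for dead TIP60 against empty vector and 1 for dead against wild-type TIP60 under TIP60 siRNA, and 4 for the last in the quasi-binomial model with block. Without 1 library and with the block they reached 0 to 8 for wild-type against empty vector, 0 to 6 for dead TIP60 against empty vector, 0 to 5 for the difference of siRNA effects of wild-type and empty vector, and 0 to 1 for dead against wild-type TIP60, the first 3 without empty-vector control replicate 1 and the last without dead TIP60 line TIP60-siRNA replicate 2. The signs of CDH1 (0.0014) and PRC1 (0.0015) reversed with the read ratio. Reads without the exon were 0 to 3 per library in CDH1 and 0 or 1 in PRC1, so that almost no skipping was observed in these exons. The cause of the reversals was not tested. The median exon's interval of 0.11 to 0.2 per library limits what can be seen in a single line.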
